A study of Saccharomyces cerevisiae with 18 samples.

Results

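The genes described here encode the enzymes that make purine and pyrimidine nucleotides in Saccharomyces cerevisiae and the permeases that bring bases and nucleosides into the cell. Of 35 genes listed by name, 34 had a probe set under that name in the platform annotation, 1 each, and ADE5,7 is not analysed here. Of these 34 among 5498 S. cerevisiae probe sets, 16 belonged to the purine branch, 12 to the pyrimidine branch and 6 served both. Cultures of BY4742, a haploid laboratory strain of mating type alpha, were grown in YPD, a rich medium. In the middle of exponential growth they received ethanol alone (control), or nonylphenol in ethanol at 1 or 5 mg/L, and were collected after 120 or 180 min. Nonylphenol is an alkylphenol released when some industrial surfactants break down, and the series asked how the yeast transcriptome responds to it at these concentrations. There were 3 Affymetrix arrays for each dose at each time, 6 groups in all. The labels call them biological replicates and do not say how the cultures were separated, so the p-values cover only the scatter among these samples.

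Both branches use PRPP (phosphoribosyl pyrophosphate), made by the Prs enzymes. The purine branch builds the ring on the sugar step by step as far as IMP, from which AMP and GMP branch off, and in yeast its ADE genes are activated by the transcription factors Bas1 and Pho2 when adenine is scarce. The pyrimidine branch first makes orotate, joins it to PRPP, and reaches UMP through the enzyme encoded by URA3. Its URA1, URA3, URA4 and URA10 genes are activated by Ppr1, which responds to intermediates of the pathway. Permeases and salvage enzymes let cells use bases and nucleosides from the medium instead.

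The standard genotype of BY4742 lacks URA3, so the strain cannot complete UMP synthesis and lives on uracil or uridine from the medium. The arrays showed this absence, with URA3 at a mean log2 signal of 0.95 to 1.24 over the 6 groups, under the background level of 1.86 set by probe sets of another yeast species. LYS2, lacking as well, was under background in 6 of 6 groups. LEU2 (2.89 to 3.24), also deleted in the standard genotype, and HIS3 (8.84 to 9.48), mutated there, were not. A level above background thus does not by itself show that a gene is present. The alpha-specific genes SAG1, STE3 and MF(ALPHA)1 had means of 9.48 or more in every group. Of 4 a-specific genes, AGA2, MFA2 and BAR1 read 5.12, 5.37 and 5.82 at 5 mg/L and 120 min, against 2.15, 2.88 and 3.89 in controls, and STE2 read 4.52, against 4.43. Their part in the results was not tested.

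All levels below are log2 RMA signals, which are scaled so that arrays have alike distributions, and a change is a difference of log2 group means. Poly-A control transcripts read 4.22 to 4.77 on the 5 mg/L arrays at 120 min, against 3.62 to 3.97 on control arrays, and overlapped at 180 min. Scaling the arrays on these transcripts shifted the 5 mg/L change of all genes alike, by -0.70 at 120 min and by -0.20 at 180 min. Smaller positive changes are negative on that poly-A scale. The poly-A means lay well below the median of the S. cerevisiae probe sets, 7.94. The 318 probe sets with control levels of 4 or under, which hold 0 of the 34 genes, had median 5 mg/L changes of 0.41 and 0.30. For levels of 8 to 10 these were -0.09 and -0.07, and above 10 they were -0.11 at both times. Whether a shift read at low levels applies to genes of higher level was not tested. RNA came from whole cultures, so fewer cells carrying a transcript and less of it per cell cannot be told apart. All 34 genes read above background in every group.

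At 5 mg/L most pyrimidine genes were lower than in controls at both times. The purine genes were split at 120 min on the deposited scale, and more of them fell than rose at 180 min. At 120 min, 9 of 12 pyrimidine genes fell and 0 rose, and of 16 purine genes 5 fell and 5 rose (limma, adjusted p under 0.05 over 5498 probe sets; 10 of the 12 and 12 of the 16 had an unadjusted p under 0.05). At 180 min, 8 pyrimidine genes fell and 0 rose, and 7 purine genes fell and 2 rose. The median log2 change was -0.37 for pyrimidine and -0.06 for purine genes at 120 min, and -0.43 and -0.16 at 180 min, with -0.04 over all probe sets at each time. The 6 shared genes had medians of -0.27 and -0.29. These medians describe the lists and carry no test, and on the poly-A scale the purine median minus the pyrimidine median was the same. On that scale all purine estimates at 120 min were below 0, since the largest, 0.35, was under the shift of 0.70.

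In all, 23 of the 34 genes were called at 120 min, or 67.6%, beside 58.1% of all probe sets. Of these 18 were lower, 52.9% of the genes, against 32.7% of all probe sets, and 5 were higher, 14.7% against 25.4%. At 180 min 23 were called as well, where the background was 61.4%: 21 were lower, 61.8% against 34.3%, and 2 were higher, 5.88% against 27.1%. Treated and control arrays did not overlap for 29 genes at 120 min (65.9% of all probe sets) and 27 at 180 min (70.0%). The share of these genes that was called lay near that of all probe sets, and the shares describe the list without a test. With poly-A scaling 31 of the 34 were called at 120 min and 11 at 180 min, where ADE1, ADE2, ADE6, ADE13, GUA1, APT1, URA8, FUR1, FCY2, PRS2, PRS4 and PRS5 no longer passed. The genes were mostly of high level. Among the 2003 probe sets with control levels of 8 to 10, which hold 18 of the genes, 40.3% were lower at 120 min and 38.6% at 180 min, and among the 654 above 10, which hold 12, 38.8% and 43.0% were. For the 2523 between 4 and 8, which hold 4, these shares were 28.9% and 32.4%.

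**Figure D1:**
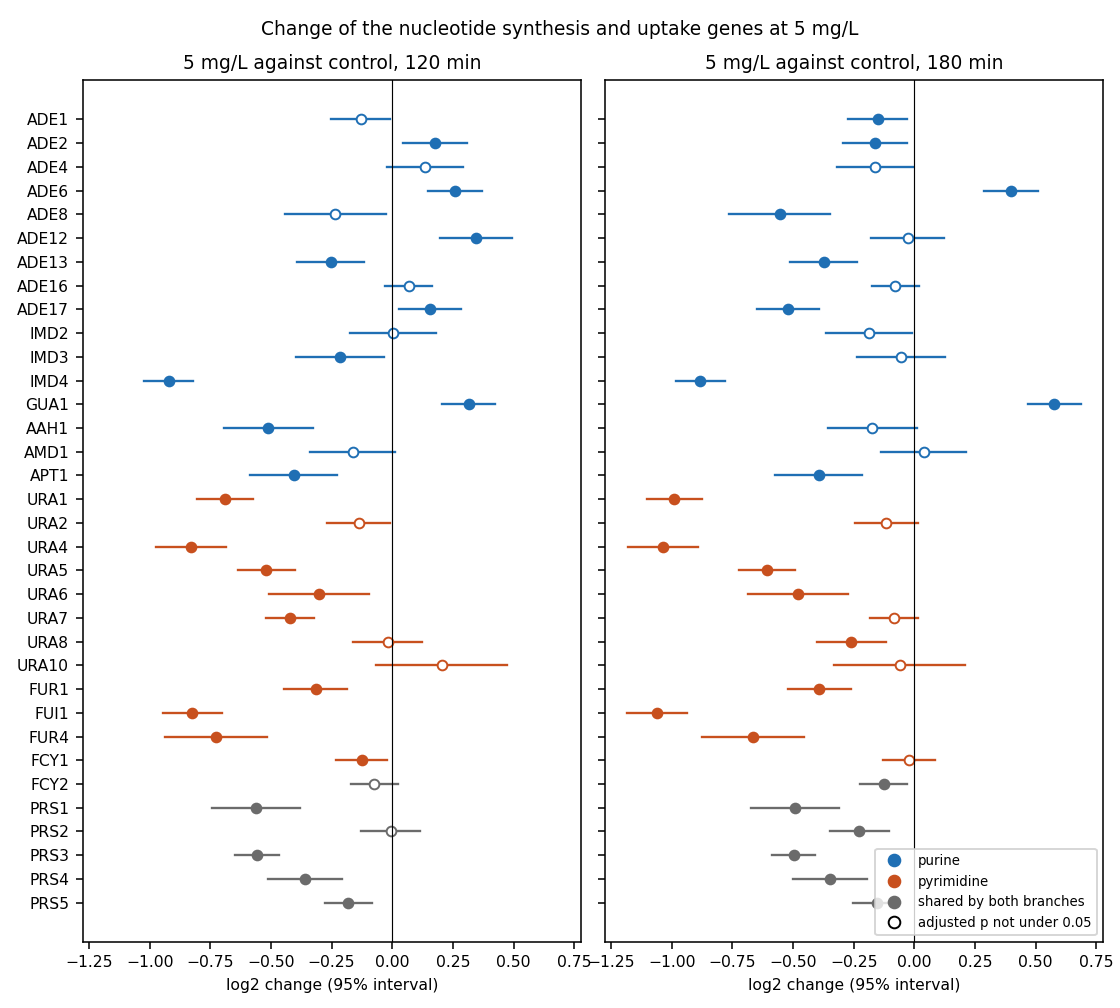
Log2 change at 5 mg/L against control for each of the 34 genes (vertical axis) at 120 min (left) and 180 min (right), with 95% intervals from the limma fit. Filled points had an adjusted p under 0.05. The pyrimidine genes lie mostly left of 0, with URA1, URA4 and FUI1 between -0.69 and -1.06, and the purine genes lie on both sides, from IMD4 at -0.92 to ADE12 at 0.35 at 120 min. On the poly-A scale every point moves by -0.70 (left) and -0.20 (right), which takes the points right of 0 at 120 min to below 0.

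**Figure D2:**
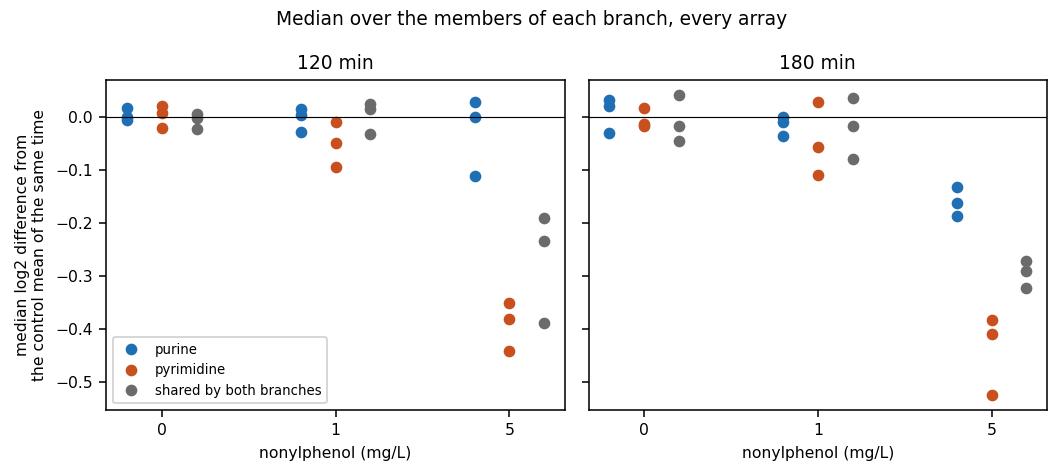
Median over the genes of each branch of the log2 difference from the control mean of the same time (vertical axis), for every array by dose (horizontal axis). On the 5 mg/L arrays the pyrimidine medians lie between -0.35 and -0.52 and the purine medians between 0.03 and -0.19, with the genes shared by both branches between them on each of the 6 arrays. On the poly-A scale all 3 branches move together.

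Of the 5 genes of UMP synthesis, URA4, URA1 and URA5 fell at both times, and URA2 and URA10 were not called. URA4 (YLR420W), which encodes dihydroorotase, read 10.25, 9.98 and 10.18 in the 5 mg/L cultures at 120 min, against 10.95, 10.97 and 10.98 in controls. The arrays at 180 min read 10.00, 9.81 and 9.79 at 5 mg/L, against 10.97, 10.92 and 10.82 in controls. The groups were far apart at both times, and URA4 was 1.78-fold lower at 120 min (log2 -0.83, SE 0.07, limma adjusted p = 3.35e-08) and 2.05-fold lower at 180 min (-1.04, SE 0.07, adjusted p = 2.22e-09). URA1 (YKL216W), which encodes dihydroorotate dehydrogenase, the next enzyme, read 11.04, 10.89 and 10.88 at 5 mg/L and 120 min, against 11.64, 11.58 and 11.66 in controls. After 180 min the gene read 10.62, 10.53 and 10.52 at 5 mg/L, against 11.59, 11.56 and 11.48 in controls. It was thus lower on every treated array, by 1.61-fold at 120 min (log2 -0.69, SE 0.05, adjusted p = 1.79e-08) and 1.99-fold at 180 min (-0.99, SE 0.05, adjusted p = 2.26e-10). In the order of all 5498 changes, URA4 was number 26 from the lowest at 120 min and 19 at 180 min, and URA1 number 75 and 23.

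URA2, the gene for the bifunctional enzyme that opens the pathway, had a mean of 11.61 ± 0.09 at 5 mg/L, against 11.74 ± 0.05 in controls, at 120 min (SD, n = 3 arrays each). Its change of -0.14 (95% interval -0.27 to -0.01) was not called, nor was that at 180 min, -0.12 (-0.25 to 0.01). The 120 min change was called with trend and robust eBayes, with array weights, on the poly-A scale and without NP5_120 replicate 2. The orotate phosphoribosyltransferases are encoded by URA5, the main form, and URA10. URA5 (YML106W) read 10.55, 10.49 and 10.56 at 5 mg/L and 120 min, against 11.03, 11.10 and 11.03 in controls, a change of -0.52 (SE 0.06, limma adjusted p = 5.78e-07). Later, at 180 min, it read 10.61, 10.52 and 10.56 at 5 mg/L, against 11.14, 11.20 and 11.17 in controls, a change of -0.61 (SE 0.06, adjusted p = 1.04e-07). URA10 was not called, with 0.20 (interval -0.07 to 0.47) at 120 min and -0.06 (-0.33 to 0.21) at 180 min. The change of URA5 differed from that of URA10 by -0.63 on average over the times (exact permutation test within each time, two-sided p = 0.005, the smallest its 400 arrangements allow, adjusted p = 0.008 over 16 isoenzyme pairs, n = 3 arrays per group).

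**Figure D3:**
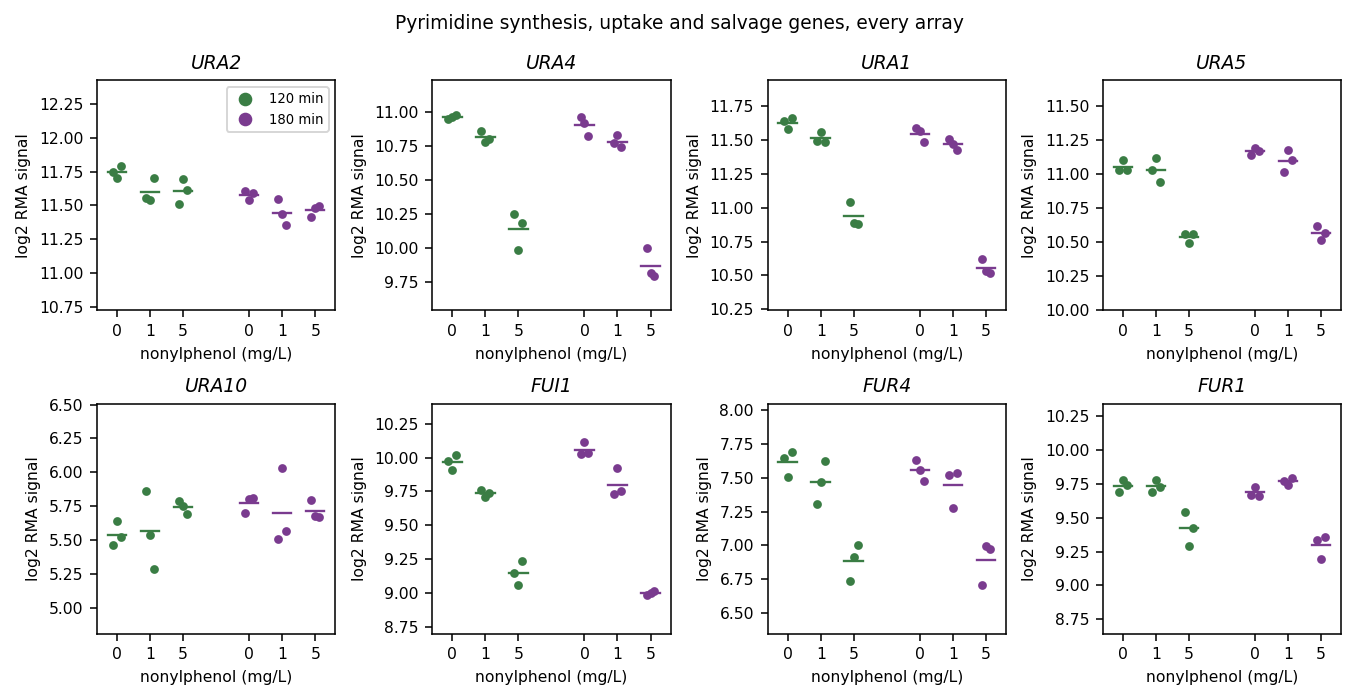
Log2 RMA signal of 8 pyrimidine genes on every array (points) with group means (lines), by nonylphenol dose at 120 and 180 min. URA4, URA1, URA5, FUI1, FUR4 and FUR1 stand lower on all 5 mg/L arrays than on all control arrays, by changes of -0.32 to -1.06, while URA2 and URA10 were not called. On the poly-A scale the 6 lower genes stay below control, though FUR1 at 180 min no longer passes there.

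The permeases for uridine and uracil fell with the URA genes. FUI1 (YBL042C), the uridine permease, read 9.15, 9.06 and 9.23 at 5 mg/L and 120 min, against 9.98, 9.91 and 10.02 in controls. Its levels at 180 min were 8.98, 9.00 and 9.02 at 5 mg/L, against 10.02, 10.11 and 10.03 in controls. This was 1.77-fold lower at 120 min (log2 -0.82, SE 0.06, limma adjusted p = 5.58e-09) and 2.08-fold lower at 180 min (-1.06, SE 0.06, adjusted p = 2.42e-10), the lowest value among the 34 genes at that time. FUR4 (YBR021W), the uracil permease, read 6.73, 6.92 and 7.01 at 5 mg/L and 120 min, against 7.65, 7.50 and 7.69 in controls. In the 180 min cultures it read 6.71, 6.997 and 6.97 at 5 mg/L, against 7.63, 7.56 and 7.48 in controls. Its 5 mg/L arrays scattered more than those of FUI1 and still all lay under the controls, with changes of -0.73 (SE 0.10, adjusted p = 9.84e-06) and -0.66 (SE 0.10, adjusted p = 2.53e-05). FCY2, the permease for purine bases and cytosine, differed by -0.07 (interval -0.17 to 0.02, not called) at 120 min. At 180 min it fell by 0.13 (SE 0.05, adjusted p = 0.0255), a call lost without control_180 replicate 1 or 2 or NP5_180 replicate 1, at an adjusted p of up to 0.0909.

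The enzymes that follow uptake and UMP were lower by smaller amounts. FUR1, uracil phosphoribosyltransferase, which turns uracil into UMP, fell to 9.42 ± 0.13 at 5 mg/L and 120 min, against 9.74 ± 0.05 in controls, and to 9.30 ± 0.09, against 9.69 ± 0.04, at 180 min (SD, n = 3 arrays each), changes of -0.32 and -0.39 (limma adjusted p = 0.000349 and 4.35e-05). URA6 (YKL024C), the UMP kinase, read 9.42, 9.12 and 9.22 at 5 mg/L and 120 min, against 9.52, 9.64 and 9.51 in controls. At 180 min it read 9.33, 9.17 and 9.23 at 5 mg/L, against 9.61, 9.83 and 9.71 in controls. The change was -0.48 (SE 0.10, limma adjusted p = 0.000473) at 180 min and -0.30 (SE 0.10, adjusted p = 0.0136) at 120 min, where the call was lost without control_120 replicate 2 or NP5_120 replicate 2 (adjusted p up to 0.0696). FCY1, cytosine deaminase, fell by 0.13 at 120 min (SE 0.05, adjusted p = 0.0407), a call that stood without NP5_120 replicate 2 but was lost without each of the other 5 arrays (adjusted p up to 0.153). It was not called at 180 min (-0.02, interval -0.13 to 0.09).

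The CTP synthases differed in when they were called. URA7 (YBL039C), the main form, read 9.48, 9.59 and 9.52 at 5 mg/L and 120 min, against 9.94, 9.96 and 9.94 in controls, a change of -0.42 (SE 0.05, limma adjusted p = 1.05e-06). The arrays at 180 min read 9.46, 9.48 and 9.53 at 5 mg/L, against 9.57, 9.58 and 9.58 in controls, and the change of -0.08 (interval -0.18 to 0.02) was not called. The 5 mg/L level was alike at both times, and the control level was the lower one at 180 min. URA8, the other form, had -0.02 (interval -0.16 to 0.12, not called) at 120 min and -0.26 (SE 0.07, adjusted p = 0.00319) at 180 min. The change of URA7 minus that of URA8 was -0.40 at 120 min and 0.18 at 180 min. The pair test takes the mean of these opposite values, -0.11 (exact permutation test, adjusted p = 0.338, n = 3 arrays per group), and so does not address the difference at either time.

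In the GMP branch, IMD4, 1 of 3 IMP dehydrogenase genes, fell at both times, while the gene for the next enzyme rose on the deposited scale. IMD4 (YML056C) read 9.82, 9.73 and 9.76 at 5 mg/L and 120 min, against 10.66, 10.69 and 10.72 in controls. After 180 min the gene read 9.72, 9.67 and 9.66 at 5 mg/L, against 10.54, 10.60 and 10.56 in controls. It was 1.89-fold lower at 120 min (log2 -0.92, SE 0.05, limma adjusted p = 1.18e-10), number 16 from the lowest of all probe sets, and 1.84-fold lower at 180 min (-0.88, SE 0.05, adjusted p = 2.04e-10). IMD3, which encodes another form of the same enzyme, fell by 0.21 at 120 min (SE 0.09, adjusted p = 0.0411), a call lost without control_120 replicate 1 or 3 or NP5_120 replicate 1 or 3 (adjusted p up to 0.152), and had -0.05 (interval -0.23 to 0.13) at 180 min, not called. IMD2 had 0.00 (interval -0.17 to 0.18) at 120 min and -0.19 (-0.36 to -0.01) at 180 min, neither called in the main fit. The 180 min fall of IMD2 was called in a fit on the compared groups only, with array weights and with the replicate number as a block. It was also called without control_180 replicate 3. Its probe set is of a type that may be shared with near-identical transcripts. The change of IMD4 differed from that of IMD3 by -0.77 and from that of IMD2 by -0.81 (exact permutation tests, adjusted p = 0.008 each, n = 3 arrays per group), while IMD3 minus IMD2 was -0.22 at 120 min and 0.13 at 180 min, opposite values whose mean of -0.04 did not pass (adjusted p = 0.725).

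GUA1 (YMR217W), GMP synthase, read 11.48, 11.53 and 11.52 at 5 mg/L and 120 min, against 11.20, 11.16 and 11.22 in controls. Later, at 180 min, it read 11.45, 11.51 and 11.52 at 5 mg/L, against 10.95, 10.89 and 10.91 in controls. It rose by log2 0.32 (SE 0.05, limma adjusted p = 6.1e-05) at 120 min and 0.58 (SE 0.05, adjusted p = 9e-08) at 180 min, a 1.49-fold difference. The treated level was again alike at both times, and the control level was the lower one at 180 min. On the poly-A scale its estimate was -0.38 at 120 min, so the direction there depends on the scaling, and at 180 min it was 0.38 and no longer passed.

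**Figure D4:**
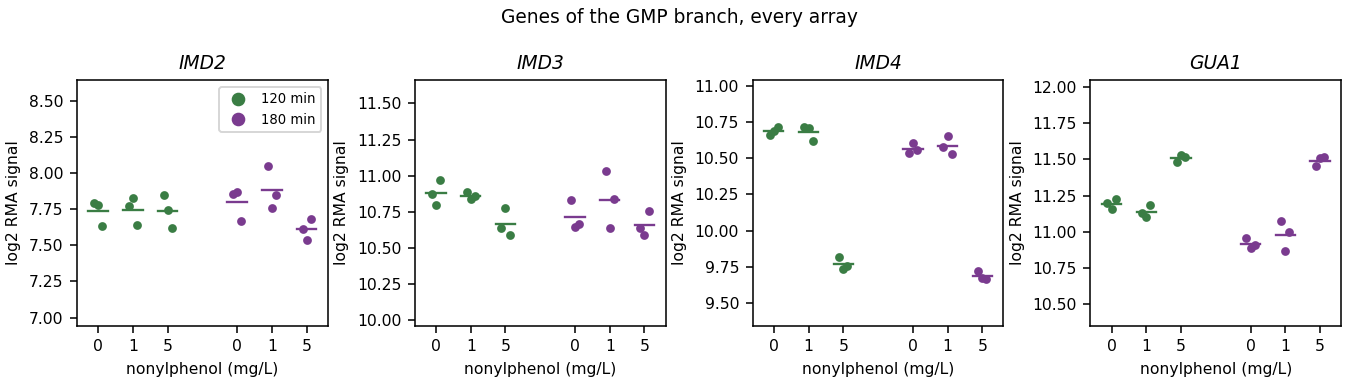
Log2 RMA signal of the 3 IMP dehydrogenase genes and GUA1 on every array (points) with group means (lines), by nonylphenol dose at 120 and 180 min. IMD4 drops to 9.66 to 9.82 on the 5 mg/L arrays, against 10.54 to 10.72 in controls, IMD2 and IMD3 differ from controls by -0.21 to 0.00, and GUA1 is higher at 5 mg/L, a direction that flips on the poly-A scale at 120 min.

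At 5 mg/L the genes of IMP synthesis moved in both directions at 120 min on the deposited scale, and most were lower at 180 min. Of the 8 measured, 3 rose (37.5%) and 1 fell (12.5%) at 120 min, beside 25.4% and 32.7% of all probe sets. At 180 min 1 rose (12.5%) and 5 fell (62.5%), beside 27.1% and 34.3%, and 7 of the 8 estimates were below 0. These shares carry no test. ADE6, which encodes phosphoribosylformylglycinamidine synthetase, rose at both times, to 11.36 ± 0.05 at 5 mg/L, against 11.10 ± 0.05 in controls at 120 min, and to 11.35 ± 0.02, against 10.95 ± 0.03, at 180 min (SD, n = 3 arrays each), with changes of 0.26 and 0.40 (limma adjusted p = 0.000536 and 7.71e-06), although on the poly-A scale its 120 min estimate was -0.44. ADE13, adenylosuccinate lyase, which acts in both IMP and AMP synthesis, fell at both times (-0.25, limma adjusted p = 0.00304, and -0.37, adjusted p = 0.000116). ADE4, which encodes the amidotransferase that opens the pathway, was not called by limma at either time, with 0.13 (interval -0.02 to 0.29) and -0.16 (adjusted p = 0.0703). Its 180 min change was called with array weights, with the replicate number as a block and without NP5_180 replicate 1. ADE1, SAICAR synthetase, had -0.13 (not called) at 120 min and fell by 0.15 at 180 min (adjusted p = 0.0313). That call was lost without control_180 replicate 1 or 2 or NP5_180 replicate 2 or 3 (adjusted p up to 0.0911).

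ADE17 and ADE2 were called in opposite directions at the 2 times, which held for 2 of the 18 genes called at both. ADE17 (YMR120C) encodes an enzyme for the last steps to IMP. It read 9.62, 9.64 and 9.60 at 5 mg/L and 120 min, against 9.53, 9.39 and 9.48 in controls. Its levels at 180 min were 9.68, 9.76 and 9.72 at 5 mg/L, against 10.35, 10.27 and 10.11 in controls. The 5 mg/L arrays were above the controls at 120 min by little and well below them at 180 min (0.15, SE 0.06, adjusted p = 0.0368, and -0.52, SE 0.06, limma adjusted p = 1.61e-06). The 120 min call was lost without control_120 replicate 2 or 3 or any of the NP5_120 arrays (adjusted p up to 0.160), and its estimate was -0.54 on the poly-A scale. ADE16, its isoenzyme, was not called at either time (0.07, interval -0.03 to 0.17, and -0.08, interval -0.18 to 0.02), and the change of ADE17 minus that of ADE16 was 0.09 at 120 min and -0.44 at 180 min, opposite values whose mean did not pass (exact permutation test, adjusted p = 0.167, n = 3 arrays per group).

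ADE2, AIR carboxylase, had 0.18 at 120 min (limma adjusted p = 0.0219) and -0.16 at 180 min (adjusted p = 0.0333). The call at 120 min was lost without control_120 replicate 1 or 2 or NP5_120 replicate 1 or 2 (adjusted p up to 0.0790). The call at 180 min was lost without any control_180 array or without NP5_180 replicate 1 or 3 (adjusted p up to 0.137), and on the poly-A scale the 120 min estimate was -0.52. ADE8 (YDR408C), GAR transformylase, read 8.16, 7.89 and 8.02 at 5 mg/L and 120 min, against 8.25, 8.34 and 8.18 in controls, a change of -0.23 that was not called (adjusted p = 0.0514). ADE8 was called at 120 min in a fit on the compared groups only, with trend and robust eBayes, with array weights and on the poly-A scale. It was also called there without NP5_120 replicate 1. In the 180 min cultures it read 8.10, 8.04 and 8.01 at 5 mg/L, against 8.58, 8.65 and 8.59 in controls, a fall of 1.47-fold (log2 -0.55, SE 0.10, adjusted p = 0.000142). ADE12, adenylosuccinate synthetase of the AMP branch, rose by 0.35 at 120 min (SE 0.07, adjusted p = 0.000523; -0.35 on the poly-A scale) and had -0.03 (interval -0.18 to 0.12) at 180 min, not called.

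The purine salvage genes that were called fell. AAH1 (YNL141W), adenine deaminase, read 8.03, 7.67 and 7.98 at 5 mg/L and 120 min, against 8.41, 8.45 and 8.35 in controls, a change of -0.51 (SE 0.09, limma adjusted p = 8.65e-05). At 180 min it read 7.89, 7.83 and 7.90 at 5 mg/L, against 7.95, 8.18 and 8.02 in controls, a change of -0.17 (interval -0.36 to 0.01) that was not called. That 180 min change was called in a fit on the compared groups only and with array weights. APT1 (YML022W), adenine phosphoribosyltransferase, read 9.11, 8.79 and 8.98 at 5 mg/L and 120 min, against 9.38, 9.39 and 9.32 in controls. The arrays at 180 min read 9.01, 8.99 and 9.05 at 5 mg/L, against 9.30, 9.50 and 9.43 in controls. Every treated array lay under the controls, with changes of -0.41 (SE 0.08, adjusted p = 0.000608) and -0.39 (SE 0.08, adjusted p = 0.000771). AMD1, AMP deaminase, was not called at either time (-0.16 and 0.04).

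The PRPP synthetase genes, which feed both branches, fell to unequal degrees. At 120 min 4 of the 5 were lower, beside 32.7% of all probe sets, and at 180 min 5 of 5 were, beside 34.3%. PRS3 (YHL011C) read 9.35, 9.32 and 9.33 at 5 mg/L and 120 min, against 9.87, 9.91 and 9.89 in controls. After 180 min the gene read 9.35, 9.29 and 9.28 at 5 mg/L, against 9.80, 9.84 and 9.78 in controls. The 3 arrays of each group lay close together and the groups far apart, with changes of -0.56 (SE 0.04, limma adjusted p = 1.47e-08) and -0.50 (SE 0.04, adjusted p = 5.61e-08). PRS1 (YKL181W) read 9.57, 9.26 and 9.53 at 5 mg/L and 120 min, against 10.01, 10.02 and 10.01 in controls. Later, at 180 min, it read 9.57, 9.58 and 9.44 at 5 mg/L, against 9.90, 10.09 and 10.08 in controls. Its changes of -0.56 (SE 0.09, adjusted p = 3.34e-05) and -0.49 (SE 0.09, adjusted p = 0.000123) had a mean difference of 0.00 from those of PRS3 (exact permutation test, adjusted p = 0.98, n = 3 arrays per group).

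PRS4 (YBL068W) read 8.99, 8.69 and 9.00 at 5 mg/L and 120 min, against 9.27, 9.25 and 9.25 in controls. Its levels at 180 min were 8.80, 8.83 and 8.75 at 5 mg/L, against 9.03, 9.19 and 9.20 in controls. It fell by 0.36 and 0.35 (limma adjusted p = 0.000387 and 0.000502), less than PRS1 and PRS3 by 0.17 each (exact permutation tests, adjusted p = 0.008 and 0.0218, n = 3 arrays per group). PRS5 had smaller falls, of 0.18 (limma adjusted p = 0.00257) and 0.16 (adjusted p = 0.00699). PRS2 was not called at 120 min (-0.01, interval -0.13 to 0.12) and fell by 0.23 at 180 min (adjusted p = 0.00291). The change of PRS1 was lower than that of PRS2 by 0.41 and than that of PRS5 by 0.36 (exact permutation tests, adjusted p = 0.008 each, n = 3 arrays per group), while PRS2 minus PRS5 was 0.17 at 120 min and -0.07 at 180 min, with a mean of 0.05 that did not pass (adjusted p = 0.446). In all, 11 of the 16 isoenzyme pairs passed.

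At 1 mg/L none of the 34 genes was called by limma at either time, 0 at 120 min (0.455% of all probe sets) and 0 at 180 min (0.109%). At an unadjusted p under 0.05 there were 3 genes at 120 min and 5 at 180 min, beside 238 and 198 of all 5498 probe sets. A fit that weights arrays called 4 and 2 of the genes, beside 252 and 106 of all probe sets. Without NP1_180 replicate 2 the count at 180 min was 1. FUI1 had the lowest estimates, with arrays of 9.76, 9.71 and 9.74 at 1 mg/L and 120 min, against 9.98, 9.91 and 10.02 in controls. In the 180 min cultures it read 9.73, 9.92 and 9.75 at 1 mg/L, against 10.02, 10.11 and 10.03 in controls. Its arrays did not overlap at either time, at changes of -0.23 (interval -0.35 to -0.11, adjusted p = 0.127) and -0.26 (-0.38 to -0.14, adjusted p = 0.138), and at 5 mg/L its levels lay lower still. ADE17 at 180 min had 9.92, 10.02 and 10.03 at 1 mg/L, against 10.35, 10.27 and 10.11 in controls, a change of -0.26 (adjusted p = 0.162). URA2 had -0.15 and -0.13 at 1 mg/L, beside its -0.14 and -0.12 at 5 mg/L, and passed at neither dose in the main fit. The purine median minus the pyrimidine median was 0.04 and 0.06 at 1 mg/L, against 0.30 and 0.27 at 5 mg/L, with an SD of 0.06 between arrays of a group.

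Compared directly with 1 mg/L, 5 mg/L gave 21 calls at 120 min, 17 lower and 4 higher (57.4% of all probe sets called), and 23 at 180 min, 21 lower and 2 higher (59.4%). By direction, 50% of the 34 genes were lower and 11.8% higher at 120 min, beside 33.1% and 24.3% of all probe sets. At 180 min these shares were 61.8% and 5.88%, beside 32.7% and 26.7%, and they carry no test. IMD4 was lower than at 1 mg/L by 0.91 at 120 min and 0.90 at 180 min, and URA4 by 0.68 and 0.91. GUA1 was higher by 0.37 and 0.51. IMD2, not called against control in the main fit, was lower at 5 than at 1 mg/L at 180 min (log2 -0.27, limma adjusted p = 0.00971). AAH1 and URA7, which were not called against control at 180 min in the main fit, were lower than at 1 mg/L there (-0.38, limma adjusted p = 0.00124, and -0.24, adjusted p = 0.000316). At 1 mg/L AAH1 read 8.17, 8.39 and 8.21 and URA7 9.74, 9.72 and 9.74 at 180 min, so most of these arrays lay above the controls given before. With poly-A scaling the counts were 32 at 120 min and 7 at 180 min (499 of all probe sets, against 3264), IMD4 and URA4 among the 7. IMD2, AAH1, URA7 and GUA1 did not pass there at 180 min (limma adjusted p = 0.261, 0.141, 0.305 and 0.340), and GUA1 had -0.39 at 120 min, not called.

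Between the collection times, 8 of the 16 purine genes were called in control cultures (limma), beside 23.2% of all probe sets. In 5 mg/L cultures 0 of the 16 were called (1 at an unadjusted p under 0.05), beside 0.891% of all probe sets. Calls over time were thus fewer at 5 mg/L than in controls for all probe sets as well. At 180 against 120 min, 9 of the 34 genes were called in controls, or 26.5% beside 23.2% of all probe sets. Of these 8 were purine genes, with ADE2, ADE4, ADE8, ADE12, ADE16 and ADE17 higher at 180 min and GUA1 and AAH1 lower, and the other was URA7, lower. The control count was 20 with array weights and 17 in a fit on the compared groups only, where all probe sets gave 2861 and 2217 calls in place of 1278. At 5 mg/L 1 of the 34 was called (0.891%), URA1, which was lower at 180 min by 0.38 (SE 0.05, limma adjusted p = 0.0029), and the count was 3 without NP5_120 replicate 2, 2 without NP5_180 replicate 1, 5 with array weights and 0 in a fit on the compared groups only. At 1 mg/L 6 were called (10.2%), of which ADE2, ADE12, ADE13 and ADE17 were higher and ADE6 and URA7 lower, and the count was 2 without NP1_180 replicate 3, 3 without NP1_120 replicate 1 or 3, 12 with array weights and 1 in a fit on the compared groups only. ADE17 was 0.78 higher at 180 than at 120 min in controls (SE 0.06, adjusted p = 6.02e-07) and 0.54 higher at 1 mg/L (SE 0.06, adjusted p = 9.81e-05), while 5 mg/L gave 0.10 (interval -0.02 to 0.23). These calls over time depend on the scaling, since 0 genes were called in any of the 3 groups on the poly-A scale.

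**Figure D5:**
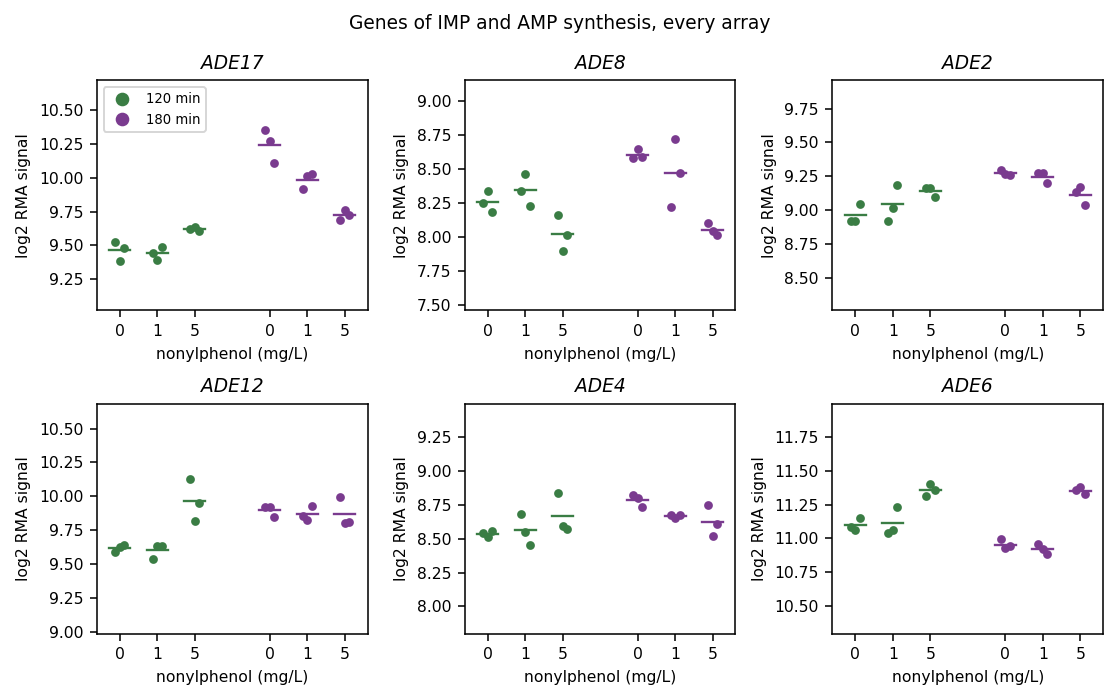
Log2 RMA signal of 6 purine genes on every array (points) with group means (lines), by nonylphenol dose at 120 and 180 min. ADE17 stands at 10.11 to 10.35 in controls at 180 min and at 9.39 to 9.53 at 120 min, while its 5 mg/L arrays lie at 9.60 to 9.76 at both times, and ADE8 at 5 mg/L lies at 7.89 to 8.16 throughout. On the poly-A scale the 120 min estimates of ADE17, ADE2, ADE12, ADE4 and ADE6 at 5 mg/L turn to between -0.35 and -0.56.

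A test of whether the 5 mg/L change itself differed between the times called 6 of the 34 genes (17.6%), against 15.0% of all probe sets. The change at 180 min was lower than at 120 min for ADE17 by 0.67, ADE12 by 0.37, ADE2 by 0.34 and URA1 by 0.30, and higher for URA7 by 0.34 and GUA1 by 0.26. In 5 of these genes the control level moved with time and the 5 mg/L level was not called. URA1 was the exception, since its control mean differed by -0.08 (not called) and its 5 mg/L mean fell. The count was 3 without control_120 replicate 1 or NP5_180 replicate 3 and 10 without NP5_120 replicate 2. ADE17, URA1 and URA7 kept their calls whichever of the 12 arrays was left out, and the other 3 did not. With array weights 17 of the 34 and 2203 of all probe sets were called, against 6 and 824 without. With poly-A scaling 0 of the 34 passed. For 1 mg/L the same test called 0 of 34 in limma, as it did of all probe sets (0%). At an unadjusted p under 0.05 there was 1 gene, beside 139 of all probe sets, and with array weights 1 was called, beside 159.

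Of 35 other genes of nucleotide metabolism, which include the deleted URA3, under background and not called, 12 fell and 4 rose at 5 mg/L and 120 min, and 19 fell and 2 rose at 180 min. That is 45.7% and 60% called, beside 58.1% and 61.4% of all probe sets, so the share called was below the background at 120 min and near it at 180 min. Without URA3 it was 47.1% and 61.8%. By direction, 34.3% and 54.3% of the 35 were lower, beside 32.7% and 34.3% of all probe sets. Higher were 11.4% and 5.71%, beside 25.4% and 27.1%. These shares carry no test. Without URA3 the 34 others had median changes of -0.12 and -0.20. Among 8 genes of one-carbon and folate supply, which provides formyl groups for the purine ring, 3 fell and 3 rose at 120 min (75% called), and 3 fell and 1 rose at 180 min (50%). MIS1, the mitochondrial C1-tetrahydrofolate synthase, had the lowest values of the list, -1.36 (SE 0.05, limma adjusted p = 8.23e-12) and -1.16 (SE 0.05, adjusted p = 2.41e-11). SHM1, mitochondrial serine hydroxymethyltransferase, fell by 0.72 and 0.77. MTD1 was lower as well, with a mean of 8.13 at 5 mg/L and 180 min, against 8.69 in controls. ADE3 and SHM2 of the same list were not lower at 180 min. ADE3 averaged 11.10 at 5 mg/L there, against 10.99 in controls, and SHM2 10.55, against 10.26. At 120 min the 5 mg/L arrays of both overlapped the controls. Whether the supply of formyl groups changed was not tested. GCV1, a subunit of glycine decarboxylase, rose by 0.61 at 120 min (adjusted p = 1.72e-07; under 0.70, so below 0 on the poly-A scale) and had -0.02 at 180 min, not called.

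Purine salvage and uptake genes outside the 34 fell or were not called, except that ADO1, adenosine kinase, rose by 0.18 at 180 min. That rise was less than the poly-A shift of 0.20 at that time. YNK1, nucleoside diphosphate kinase, which serves both branches, rose by 0.37 at 120 min (limma adjusted p = 0.00262, less than the poly-A shift of 0.70) and had -0.14 at 180 min, not called. HPT1, hypoxanthine-guanine phosphoribosyltransferase, fell by 0.72 and 0.43, and FCY21, a relative of FCY2, by 0.82 and 0.63. Of 8 genes of pyrimidine salvage and deoxynucleotides, 1 fell at 120 min, URK1, uridine kinase (-0.49, limma adjusted p = 2.37e-07), or 12.5%, and 6 fell at 180 min, or 75%, where 32.7% and 34.3% of all probe sets were lower. Of the 4 regulators, BAS1 fell by 0.54 at 120 min (adjusted p = 6.07e-07) and had -0.10 at 180 min, not called. PPR1 fell by 0.39 (adjusted p = 0.000437) and 0.19 (adjusted p = 0.0404), and PHO2 and GCN4 were not called. PPR1 averaged 6.67 at 5 mg/L, against 7.06 in controls at 120 min. At 1 mg/L 0 of the 35 were called by limma at either time, with 1 at each time at an unadjusted p under 0.05, beside 238 and 198 of all 5498 probe sets.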

How the data were processed

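RNA of 18 cultures was labelled from 100 ng of total RNA with a 3' IVT kit and hybridised to 1-colour Affymetrix arrays, per the labels' protocols. The deposited log2 values are RMA signals, per the submitters' processing notes, which name RMA, affy and limma without versions; that the logarithm has base 2 was read from their range of 0.41 to 13.74 and from RMA's usual output. The chip also carries probe sets of another yeast. Of 10928 probe sets, 5498 were assigned to S. cerevisiae genes through the platform annotation, and the percentile 95 of the 1747 other-species probe sets set the background level, 1.86. Gene symbols were updated for 12. The arrays were used as deposited, with no further normalization. Group means were fitted over all 18 arrays with limma 3.58.1 (lmFit and eBayes, R 4.3.3), using Benjamini-Hochberg adjustment over the 5498 probe sets and a threshold of 0.05. The fit was tested on simulated data. Isoenzyme pairs were compared by exact permutation of arrays within each time, two-sided, on the difference between the genes within an array. That test was chosen after seeing the data, as were the comparisons of 180 with 120 min at 1 mg/L and at 5 mg/L.

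The members, branches and lists were chosen with earlier results of these data known. Every member is named. Values of every array are given for members called against control that were among the 12 largest changes at 5 mg/L in either time, and 1 mg/L arrays for genes chosen after their values were seen. Of the other genes of the pathway, called ones with large changes are named. Replicates of a group correlated at 0.994 to 0.999 and 0 arrays were identical. With 3 arrays per group, their number limits the precision, and 3 against 3 alone could not go below an exact p of 0.1. Alternatives were a fit on the compared groups only, trend and robust eBayes, array weights, repeated quantile normalization, scaling on 27 poly-A control probe sets, a filter at background, the replicate number as a block, and leaving out each array. Levels of different probe sets are not compared.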

Additional observations from a re-analysis of the deposited data

Results flagged for a closer look

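For 6 of the 34 genes the change at 5 mg/L differed between the times by limma's test of the difference itself, with adjusted p over 5498 probe sets. The difference, 180 min minus 120 min, was -0.67 for ADE17 (SE 0.09, adjusted p = 0.000289), -0.37 for ADE12 (SE 0.10, adjusted p = 0.0226) and -0.34 for ADE2 (SE 0.09, adjusted p = 0.0189). It was -0.30 for URA1 (SE 0.08, adjusted p = 0.017), 0.34 for URA7 (SE 0.07, adjusted p = 0.00421) and 0.26 for GUA1 (SE 0.07, adjusted p = 0.0271). Leaving out 1 array raised the adjusted p to as much as 0.0565 for ADE2, 0.0613 for ADE12 and 0.0754 for GUA1. For ADE17, URA1 and URA7 it stayed at or under 0.0477. On the poly-A scale none of the 6 passed in limma, and ADE2, ADE12 and URA1 had estimates of the other sign.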

How the results depend on the processing

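Of the 34 genes, the counts called at 5 mg/L against control (23 at each time) were 19 to 22 at 120 min and 20 to 23 at 180 min when 1 array was left out. The other ranges under that omission were 0 to 0 and 0 to 1 for 1 mg/L at 120 and 180 min (1 without NP1_180 replicate 2), 18 to 22 and 22 to 23 for 5 against 1 mg/L, 3 to 10 for the difference between times at 5 mg/L, 0 to 0 for that at 1 mg/L, 6 to 9 for controls over time, 1 to 3 for 5 mg/L over time (3 without NP5_120 replicate 2, 2 without NP5_180 replicate 1) and 2 to 6 for 1 mg/L over time (2 without NP1_180 replicate 3, 3 without NP1_120 replicate 1 or 3). The purine minus pyrimidine median ranged from 0.29 to 0.34 and 0.24 to 0.32 at 5 mg/L, and from 0.00 to 0.06 and 0.01 to 0.08 at 1 mg/L.

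With array weights the fit called 4 and 2 genes at 1 mg/L at 120 and 180 min, 17 and 1 for the differences between times at 5 and 1 mg/L, and 20, 5 and 12 over time in controls, at 5 mg/L and at 1 mg/L. A fit on the compared groups only called 17, 0 and 1 over time in the same order, and repeated quantile normalization called 2 at 5 mg/L over time. Over all probe sets, array weights gave 252 and 106 calls at 1 mg/L, 2203 and 159 for the differences between times, and 2861, 655 and 1563 over time. The fit on compared groups gave 2 at 1 mg/L and 180 min and 2217, 7 and 37 over time, and quantile normalization gave 79 at 5 mg/L over time.

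Scaling on the poly-A controls called 11 genes at 5 mg/L and 180 min, 32 and 7 for 5 against 1 mg/L at 120 and 180 min, and 0 for the difference between times at 5 mg/L and over time in controls, at 5 mg/L and at 1 mg/L. Over all probe sets it gave 821 at 5 mg/L and 180 min, 0 and 0 at 1 mg/L, 499 for 5 against 1 mg/L at 180 min, 19 for the difference between times, and 2, 7 and 1 over time. At 120 min it turned the sign for ADE2 (-0.52), ADE4 (-0.56), ADE6 (-0.44), ADE12 (-0.35), ADE16 (-0.63), ADE17 (-0.54), IMD2 (-0.69), GUA1 (-0.38) and URA10 (-0.49), and in the difference between times for ADE2 (0.16), ADE12 (0.13) and URA1 (0.20). This follows from the shift of every gene by the same amount; why the poly-A signals differ was not tested. At 180 min, ADE6 and GUA1 kept a positive estimate (0.20 and 0.38) that no longer passed.

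With the replicate number as a block, the counts for 5 mg/L were 23 and 25, for 1 mg/L 0 and 0, for 5 against 1 mg/L 21 and 23, for the differences between times 7 and 0, and over time 8 in controls, 1 at 5 mg/L and 5 at 1 mg/L. Same-numbered arrays deviated together in 5 of 12 pairs (correlation -0.30 to 0.52), which include the 3 pairs of 1 mg/L and control at 120 min. Trend and robust eBayes and the filter at background changed no count of these genes by over 1.5 times.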
